A study of Mus musculus with 4 samples.

Results

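The CCN genes and a set of genes read as targets of Yap were followed in single-cell RNA sequencing (scRNA-seq) of C3H10T1/2 cells, a mouse line of mesenchymal progenitors. The 8 genes were chosen by name, as 5 genes of secreted CCN proteins (Ccn1, Ccn2, Ccn3, Ccn4 and Ccn5) and 3 genes tied to Yap (Ankrd1, Amotl2 and Ajuba), out of 32285 genes in the count matrices. All 8 were detected in all 4 libraries. The libraries came from cells that received a transgenic, epitope-tagged histone H3.1 by lentivirus, either wild type (H3WT) or with cysteine in place of the arginine at the mutated position of the tail (H3R26C), and each genotype was profiled after the vehicle DMSO or after 5-azacytidine (5-Aza), an inhibitor of DNA methyltransferases that was given briefly as a differentiation cue. The cells were grown under puromycin, to which the vector gives resistance, and kept their own H3 genes, so the mutant histone was present beside endogenous H3. The 5-Aza cells were collected weeks after the treatment, and the time of collection of the DMSO cells is not given in the sources used here, so that treatment and time in culture cannot be told apart.

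Each condition had 1 library, so no difference between conditions could be tested. Values are counts of unique molecular identifiers (UMIs, distinct RNA molecules) summed over the cells of a library and scaled to CPM, in which every library has the same total of UMIs. Their 95% intervals are exact Poisson intervals for levels and exact conditional intervals for ratios, and both cover counting error only. Barcodes with at least 5000 UMIs, at least 1500 genes and at most 20% mitochondrial UMIs were kept, which left 3710 (DMSO) and 5993 (5-Aza) cells of H3WT and 4727 (DMSO) and 7619 (5-Aza) cells of H3R26C, with 84060490 to 110712425 UMIs a library. Median depth ran from 13123 to 22420 UMIs a cell and was higher with DMSO, so shares of cells with a UMI are given after random thinning of every cell to 5000 UMIs. Pairs of libraries shared 24 to 58 of their kept barcodes. Of the cell type markers, the summed level of 13 skeletal muscle genes was 2.57 to 2.63 CPM in the DMSO libraries and 2010 to 2512 CPM in the 5-Aza libraries, while 5 endothelial and 5 blood genes summed to 4.62 to 13.98 CPM in every library. Myh4 was at 0 in both DMSO libraries, and Myog, Myh1, Myh8 and Actn2 were also at 0 in H3R26C DMSO, while of the blood genes Ptprc, Hbb-bs and Hba-a1 were at 0 in both DMSO libraries. Bgn and Dcn, matrix proteoglycans of mesenchymal cells, stood at 1944 to 2235 and 874.1 to 1627 CPM. Fewer cells that express a gene and less RNA per cell cannot be told apart in the summed values.

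CCN proteins are secreted, cysteine-rich proteins that sit in the matrix, bind integrins and proteoglycans, and change how cells adhere and respond to growth factors. Ccn1 (Cyr61) and Ccn2 (Ctgf) are standard readouts of Yap and Taz, the coactivators that Hippo kinases hold in the cytoplasm and that act on DNA through Tead factors. Ccn3 (Nov) often opposes Ccn2, Ccn4 (Wisp1) is a Wnt-responsive member found in bone and fibroblasts, and Ccn5 (Wisp2) lacks the C-terminal cystine knot of the other members. Ankrd1 encodes an ankyrin repeat protein of striated muscle that binds titin and is also a Yap target in other cells. Amotl2, an angiomotin, and Ajuba, a LIM protein that restrains Lats kinases, belong to the Hippo pathway itself, and Amotl2 is a feedback target of Yap.

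In GRCm38 the genes lie at chr3:145646976-145649981 (Ccn1), chr10:24595442-24598683 (Ccn2), chr15:54745702-54754039 (Ccn3), chr15:66891320-66923201 (Ccn4), chr2:163820861-163833146 (Ccn5), chr19:36111961-36120099 (Ankrd1), chr9:102716672-102733418 (Amotl2) and chr14:54567472-54577558 (Ajuba). Only Ccn2 overlaps another gene, the antisense transcript Gm15270, and how the counting treated strand is not stated. RefSeq promoters of 300 bases (250 before and 50 after the start) were at hand for 4 of the 8 genes, Ccn1, Ankrd1, Amotl2 and Ajuba. The letters that Tead factors bind, GGAATG on either strand, were found in all 4 of them, against 14.6% of 32544 distinct promoters, and no match overlapped another motif searched. They are shown because Yap reaches its targets through such letters, in capitals in stretches written 5′ to 3′ along each gene, with the 250 bases before the start for Ccn1 and Ajuba and 30 bases around each match for Ankrd1 and Amotl2, where some GENCODE transcripts place a 5′ UTR.
Ccn1, chr3:145649986-145650235, minus strand: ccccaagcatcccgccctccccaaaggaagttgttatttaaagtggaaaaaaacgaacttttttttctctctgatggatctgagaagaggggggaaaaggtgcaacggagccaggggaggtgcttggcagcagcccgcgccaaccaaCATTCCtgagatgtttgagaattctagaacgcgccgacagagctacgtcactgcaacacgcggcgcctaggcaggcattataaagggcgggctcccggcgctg
Ajuba, chr14:54577662-54577911, minus strand: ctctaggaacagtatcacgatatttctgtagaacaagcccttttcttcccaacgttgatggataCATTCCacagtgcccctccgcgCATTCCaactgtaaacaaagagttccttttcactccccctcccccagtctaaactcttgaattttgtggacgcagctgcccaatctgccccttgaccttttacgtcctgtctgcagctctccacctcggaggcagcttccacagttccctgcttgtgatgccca
Ankrd1, chr19:36120037-36120066, minus strand: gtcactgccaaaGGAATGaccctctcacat
Ankrd1, chr19:36119950-36119979, minus strand: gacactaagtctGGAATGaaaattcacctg
Amotl2, chr9:102717727-102717756, plus strand: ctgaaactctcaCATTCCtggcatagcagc

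The matches began 103 bases before the RefSeq start in Ccn1, 65 in Amotl2, 186 and 164 in Ajuba and 210 and 123 in Ankrd1. None of the 4 promoters held the AP-1 letters TGANTCA (7.79% of all promoters) or a CArG box (1.64%), and only that of Ccn1 held TATAAA (13.6%). They carried 26 (Amotl2), 20 (Ccn1), 13 (Ajuba) and 7 (Ankrd1) CpG dinucleotides, against a median of 7 over all promoters, and 83% of promoters had fewer than that of Amotl2 and 73.3% fewer than that of Ccn1. A match is a run of letters and not a bound site.

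Ccn1 was highest in H3WT DMSO and lowest in H3R26C 5-Aza. Its level was 687.6 CPM in H3WT DMSO, 483.4 in H3WT 5-Aza, 402.3 in H3R26C DMSO and 241.9 in H3R26C 5-Aza. The 4 intervals did not overlap, and each step down this order was larger than counting error. With 5-Aza the level was 0.703 times that with DMSO in H3WT (0.694 to 0.712) and 0.601 times in H3R26C (0.592 to 0.611), and H3R26C held 0.585 times the H3WT level with DMSO and 0.500 times with 5-Aza. The share of thinned cells with a UMI followed the same order, at 76.7%, 65.1%, 57.4% and 44.4%, and without thinning at 89.0%, 78.4%, 74.7% and 61.5%.

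Ccn2 differed from Ccn1 in its pattern. It stood at 65.6 CPM in H3WT DMSO, 125.9 in H3WT 5-Aza, 35.9 in H3R26C DMSO and 34.8 in H3R26C 5-Aza. The H3WT 5-Aza library was 1.92 times the H3WT DMSO library (1.86 to 1.98), while the H3R26C libraries differed by a ratio of 0.967 with an interval that includes 1 (0.922 to 1.02). After 5-Aza H3R26C held 0.276 times the Ccn2 level of H3WT (0.266 to 0.287), the largest genotype difference toward lower levels among the 8 genes. The share of thinned cells with a Ccn2 UMI was 17.1% in H3WT DMSO and 21.6% in H3WT 5-Aza (33.4% and 32.5% unthinned), while the mean was 0.326 and 0.631 UMIs a thinned cell. In the H3R26C libraries the share was 10.3% with DMSO and 9.12% with 5-Aza (19.2% and 15.97% unthinned). The variance of the thinned Ccn2 counts was 7.07 times their mean in H3WT 5-Aza and 2.88 to 4.195 times in the other libraries.

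Ccn3 differed with 5-Aza in opposite directions in the genotypes. It measured 530.5 CPM in H3WT DMSO, 596.6 in H3WT 5-Aza, 830.6 in H3R26C DMSO and 287.8 in H3R26C 5-Aza. H3R26C DMSO was the highest library and H3R26C 5-Aza the lowest, with both H3WT libraries between them. The 5-Aza ratio was 1.12 in H3WT (1.11 to 1.14) and 0.347 in H3R26C (0.342 to 0.351), and H3R26C was above H3WT with DMSO (ratio 1.57) and below it with 5-Aza (ratio 0.482). Cells differed widely within each library. The variance of the thinned Ccn3 counts was 7.67 to 9.50 times their mean, where counting alone gives a value near 1.

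Summed over whole libraries, Ccn4 and Ccn5 were higher with 5-Aza in both genotypes, though not within every cluster described below. Ccn4 was at 16.2 CPM in H3WT DMSO, 27.1 in H3WT 5-Aza, 12.51 in H3R26C DMSO and 29.3 in H3R26C 5-Aza, so that both 5-Aza libraries lay above both DMSO libraries. Its 5-Aza ratio was 1.68 (1.57 to 1.79) in H3WT and 2.34 (2.18 to 2.51) in H3R26C. Ccn5 was at 193.4, 337.9, 98.4 and 184.7 CPM in the same order, with 5-Aza ratios of 1.75 (1.71 to 1.78) and 1.88 (1.83 to 1.93), and here H3R26C held 0.509 and 0.547 times the H3WT level with DMSO and with 5-Aza. The H3R26C 5-Aza library therefore stood just below the H3WT DMSO library. The sixth member of the family, Ccn6, was not among the 8 genes and had 0 UMIs in both DMSO libraries (below 0.0357 CPM by 3 counts), 13 in H3WT 5-Aza and 18 in H3R26C 5-Aza.

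Amotl2, of the Hippo pathway, followed the order of Ccn1, with 100.6 CPM in H3WT DMSO, 83.4 in H3WT 5-Aza, 68.2 in H3R26C DMSO and 45.3 in H3R26C 5-Aza, and its intervals did not overlap. Ajuba was at 14.5, 14.03, 9.73 and 11.3 CPM. Its intervals overlapped between the H3WT libraries (5-Aza ratio 0.967, 0.893 to 1.05) and did not overlap between the H3R26C libraries (1.16, 1.06 to 1.27). The variance of the thinned Ajuba counts was 1.04 to 1.05 times their mean. Its 4.49% to 6.74% of positive thinned cells (13.6% to 26.5% unthinned) were near the 4.59% to 6.89% that a single common level would give. At means of 0.047 to 0.071 UMIs a thinned cell, these values cannot show that cells shared a level. Over the clusters described below, Ajuba in H3WT 5-Aza ran from 7.41 CPM (5.035 to 10.52) in D to 43.16 CPM (30.39 to 59.49) in I.

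Ankrd1 was all but absent with DMSO. Its 27 UMIs in H3WT DMSO and 20 in H3R26C DMSO gave 0.311 CPM (0.205 to 0.452) and 0.238 CPM (0.145 to 0.367), against 30.6 CPM in H3WT 5-Aza and 87.2 CPM in H3R26C 5-Aza. The DMSO libraries overlapped, and the H3R26C 5-Aza level was 2.85 times the H3WT 5-Aza level (2.73 to 2.98). The 5-Aza ratio was 98.5 in H3WT (67.5 to 149.8) and 366.5 in H3R26C (237.1 to 600.2). The share of thinned cells with a UMI was 0.135% and 0.127% with DMSO, 6.57% in H3WT 5-Aza and 11.5% in H3R26C 5-Aza (unthinned 0.593%, 0.402%, 12.9% and 21.3%).

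**Figure D1:**
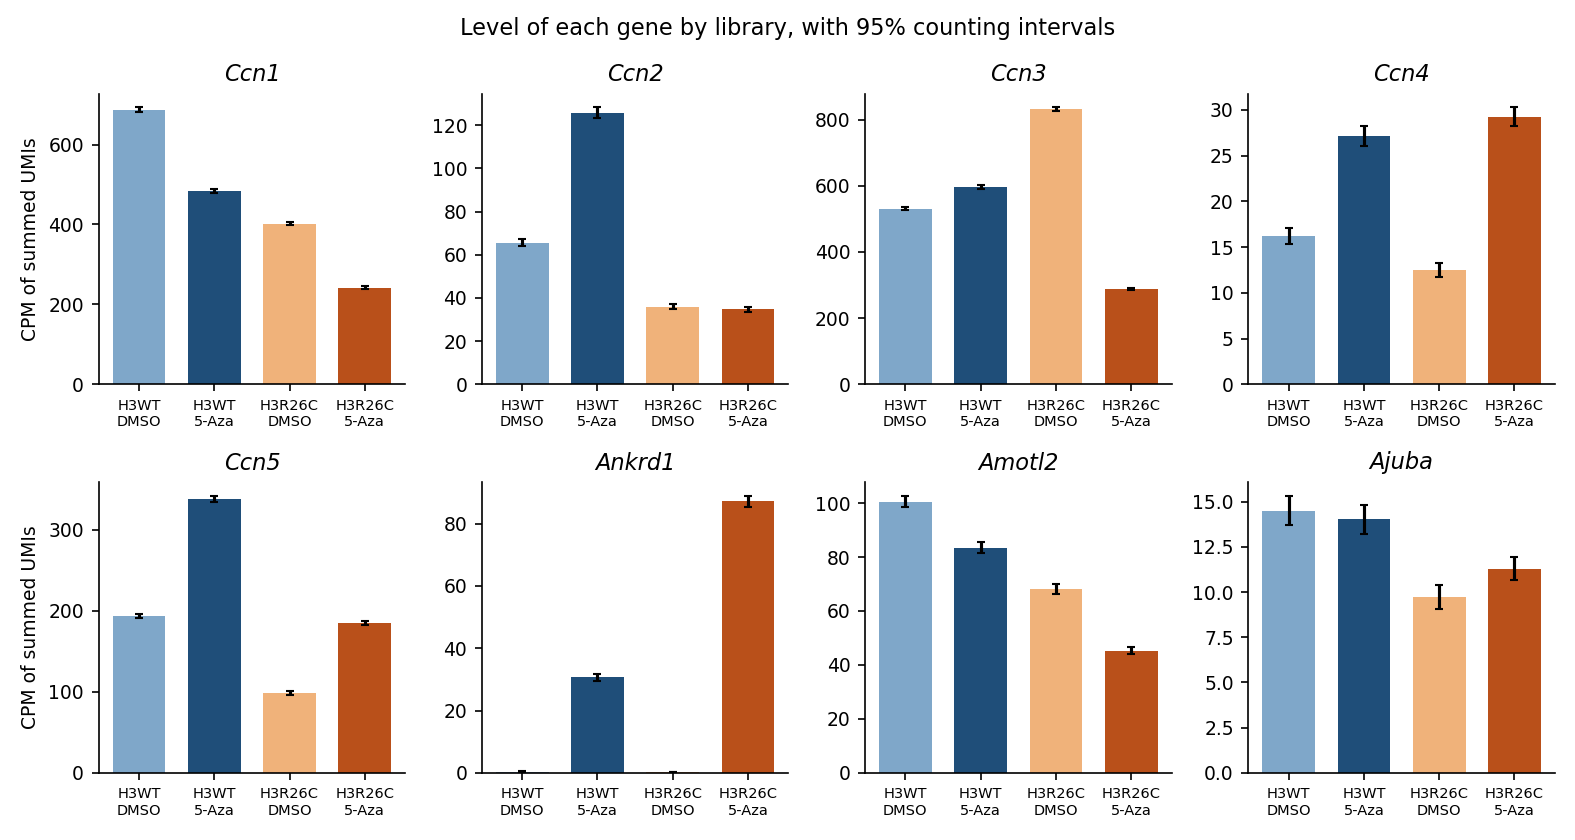
Level of each of the 8 genes in CPM of summed UMIs (y axes, each from 0) in the 4 libraries (x axes); bars are the levels and whiskers their 95% Poisson intervals. Ccn1 and Amotl2 step down from H3WT DMSO to H3R26C 5-Aza, Ccn4 and Ccn5 are higher with 5-Aza in both genotypes, Ccn2 is highest in H3WT 5-Aza at 125.9 CPM, Ccn3 is highest in H3R26C DMSO at 830.6 CPM, and Ankrd1 is near 0 in both DMSO libraries.

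To set the 8 genes beside the rest of the transcriptome, log2 ratios were taken with 1 CPM added to each level, and a gene was called where the ratio reached 2-fold, among genes whose mean over the libraries compared was 1 CPM or more. With 5-Aza in H3WT, Ankrd1 (log2 ratio 4.59) was the only 1 of the 8 genes called higher, against 4.26% of 12306 genes, and 0 were called lower, against 0.276%. In H3R26C, Ankrd1 (6.15) and Ccn4 (1.16) were called higher, against 8.04% of 12551 genes, and Ccn3 (-1.53) was called lower, against 3.09%. The median log2 ratio of the 8 genes was 0.44 in H3WT and 0.07 in H3R26C, and that of all genes tested was 0.04 and -0.03. The call of Ccn4 ended with 5 CPM added (log2 ratio 0.97), and the size of the Ankrd1 ratio depends on the amount added, since its DMSO levels were below it.

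Between the genotypes with DMSO, 0 of the 7 genes measured were called, against 1.82% of 12052 genes called higher in H3R26C and 0.589% called lower. All but Ccn3 (0.65) had negative log2 ratios, from -0.97 for Ccn5 and -0.85 for Ccn2 to -0.35 for Ccn4, with a median of -0.55 against 0.03 over all genes, and Ankrd1 was below the minimum level. Scaling by median-of-ratios size factors brought Ccn5 to -1.02. After 5-Aza, Ankrd1 (1.48) was called higher in H3R26C, against 4.79% of 12669 genes, and Ccn2 (-1.83) and Ccn3 (-1.05) were called lower, against 2.64%, while Ccn1, at 0.500 times the H3WT level, was just inside the threshold. The median was -0.87 against -0.03 over all genes. The call of Ccn3 here ended under 4 of the alternatives, at a log2 ratio of -0.78 at the least.

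The response to 5-Aza was compared between genotypes as the log2 ratio in H3R26C minus that in H3WT. Ankrd1 (1.56) was called toward H3R26C, against 2.44% of 12482 genes, and Ccn3 (-1.69) toward H3WT, against 1.82%, while Ccn2 stood at -0.98 and the other 5 genes lay between -0.31 and 0.45. These differences have no test, since each of the 4 conditions is 1 library. Both Ankrd1 calls between genotypes ended without the muscle-like and adipocyte-like cells described below, where the log2 ratio between genotypes after 5-Aza was 0.90 (H3R26C still the higher) and the difference of the log2 responses 0.99.

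**Figure D2:**
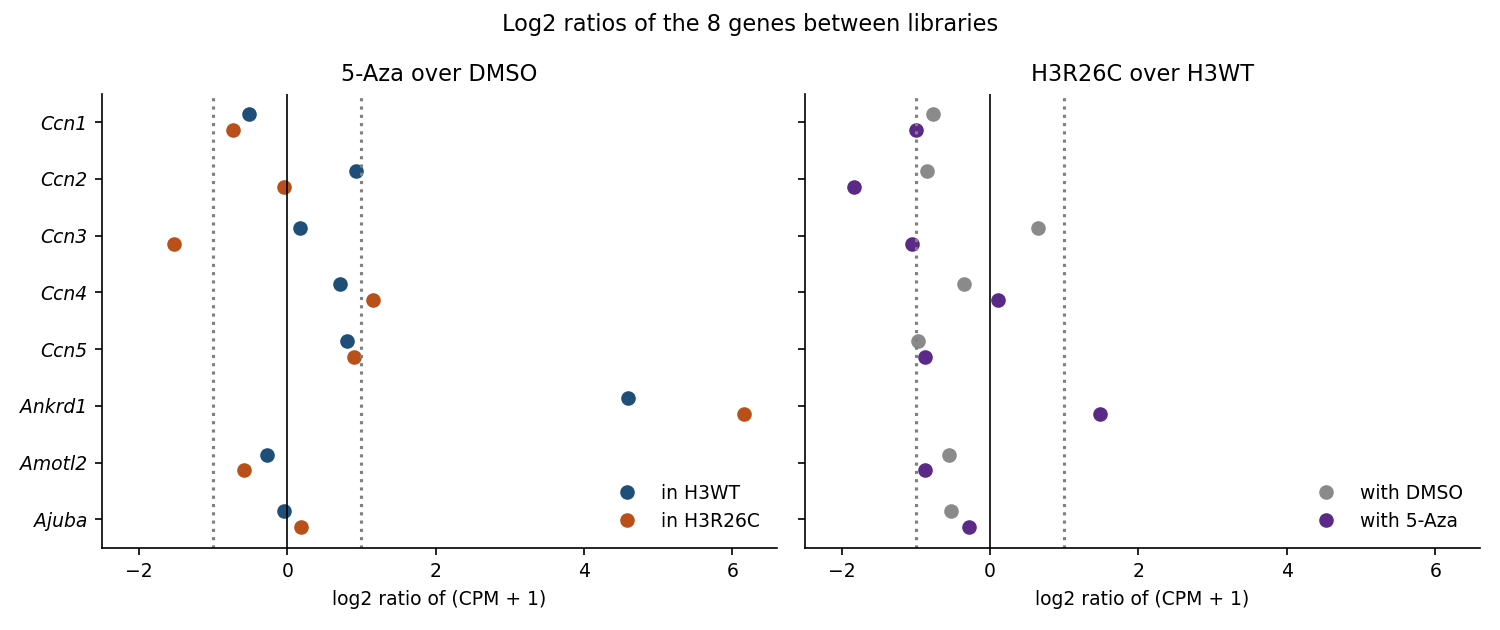
Log2 ratios (x axes, 1 CPM added) of the 8 genes (y axis) for 5-Aza over DMSO in each genotype on the left and for H3R26C over H3WT with each treatment on the right; dotted lines mark 2-fold, and Ankrd1 has no point for the DMSO comparison, where it was below the minimum level. On the left Ccn3 lies at 0.17 in H3WT and -1.53 in H3R26C, and on the right most genes lie to the left of 0.

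The upstream genes of the pathway were counted beside the shares of all genes called. These were 4.26% higher and 0.276% lower with 5-Aza in H3WT and 8.04% and 3.09% in H3R26C. Between the genotypes they were 1.82% higher and 0.589% lower in H3R26C with DMSO and 4.79% and 2.64% after 5-Aza. So 0 or 1 called in a list of this size is no result about it. Of 22 Hippo kinases and scaffolds, 21 were measured and 0 were called with 5-Aza in H3WT, while in H3R26C only Fat4 (an atypical cadherin upstream of Hippo) was called lower, at -1.18. Fat4 was also the only gene of that list called between the genotypes after 5-Aza (-1.01), and none was called with DMSO. Of the 8 genes of Yap, Taz, Tead and Vgll cofactors, 0 were called in either 5-Aza comparison and 1 between the genotypes after 5-Aza, Vgll3, a Tead-binding cofactor, at -1.18. Yap1 itself measured 43.2, 36.9, 38.3 and 27.2 CPM and Wwtr1, which encodes Taz, 82.6, 94.0, 86.2 and 95.9 CPM, in the order of libraries used above. RNA levels say nothing of where Yap and Taz proteins lay in the cell.

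Other genes listed as Yap targets did not share 1 direction, though most were lower in H3R26C than in H3WT after 5-Aza. For these lists too, the shares of all genes called higher and lower were 4.26% and 0.276% with 5-Aza in H3WT and 8.04% and 3.09% in H3R26C. In H3R26C against H3WT they were 1.82% and 0.589% with DMSO and 4.79% and 2.64% after 5-Aza. Of all responses, 1.82% were called lower in H3R26C. Of 15 measured, 1 was called higher and 0 lower with 5-Aza in H3WT, and 1 higher and 2 lower in H3R26C. Igfbp3, an IGF-binding protein, was the one called higher in both, at 2.55 and 2.34, and Fjx1 (-1.21) and Tgfb2 (-1.07) were called lower in H3R26C. Between the genotypes after 5-Aza, Tgfb2 (-1.31) and Rbms3 (-1.10) were called lower in H3R26C. Of the 15, 12 were below 0, against 6719 of 12669 genes, with a median of -0.28 against -0.03. The response was lower in H3R26C for 13 of the 15, against 7729 of 12482 genes, and that of Fjx1 was called (-1.14). The lower direction was not particular to this list. Between the genotypes after 5-Aza, 17 of 21 Hippo kinases and scaffolds were below 0 (median -0.19), and 16 of 21 of their responses were lower. Of the 10 contractile genes described next, 6 were below 0 and 9 responses were lower. Of the 8 cofactors of Yap, Taz, Tead and Vgll, 3 were below 0 and 5 responses were lower. Among 11 contractile genes driven by Srf, of which 10 were measured, 5 were called higher with 5-Aza in H3WT, led by Tagln (2.94), Myl9 (2.13) and Tpm2 (1.45), and 3 in H3R26C, Tpm2 (1.43), Myl9 (1.22) and Tagln (1.01). Tagln (1.16) and Myl9 (1.03) were also called higher in H3R26C than in H3WT with DMSO, and the response of Tagln was the only one of the list called lower in H3R26C (-1.93). Of 11 genes of TGF-beta ligands, receptors and targets, Tgfbi (1.20) and Tgfb1 (1.19) were called higher with 5-Aza in H3R26C and 0 in H3WT. Between the genotypes with DMSO, Tgfbi (1.56) was called higher in H3R26C, and after 5-Aza it was called higher again (1.81). Of 13 CCN receptors and partners, integrin genes among them, Itgb8 (1.48) and Itga6 (1.33) were called higher with 5-Aza in H3R26C and 0 in H3WT, and after 5-Aza Itga6 was called higher in H3R26C than in H3WT (1.48).

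The immediate early genes, which growth factors and stretch induce within minutes and among which Ccn1 is often counted, had summed levels in the same order of libraries as Ccn1, at 7990, 5824, 4609 and 2287 CPM. Of 19, 4 were called lower with 5-Aza in H3WT (median of the list -0.43), against 0.276% of all genes, and 11 in H3R26C (-1.11), against 3.09%. Between the genotypes, 4 were called lower in H3R26C with DMSO (-0.75), against 0.589%, and 13 after 5-Aza (-1.25), against 2.64%. In all 4 comparisons 0 were called higher, against 1.82% to 8.04% of all genes. The responses of 3 of the 19, Fos, Zfp36 and Fosb, were called lower in H3R26C (-2.37 at the lowest), against 1.82% of all genes. Fosb (-2.05 and -3.91) and Btg2 (-1.40 and -2.36) were lower with 5-Aza in both genotypes, and Fos stood at 920.6, 493.7, 438.3 and 44.8 CPM. Whether these genes and Ccn1 share a cause, the handling of cells before capture included, was not tested.

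Among the kept cells of the 5-Aza libraries, most Ankrd1 UMIs lay in cells with the RNA of skeletal muscle. Cells were called muscle-like where at least 6 of the 13 muscle markers had a UMI after thinning, which held for 0 cells in either DMSO library, 254 in H3WT 5-Aza and 328 in H3R26C 5-Aza. Ankrd1 measured 405.3 CPM (384.9 to 426.5) in the muscle-like cells of H3WT 5-Aza and 1154 CPM (1127 to 1182) in those of H3R26C 5-Aza. With 1477 and 6863 UMIs they held 57.2% and 71.1% of the Ankrd1 UMIs in the kept cells of their library. Among the muscle-like cells 46.5% and 72.0% had an Ankrd1 UMI after thinning. In H3WT 5-Aza the level was 11.9 CPM in cells with 0 of the markers, 11.98 with 1 or 2, 21.3 with 3 to 5, 291.7 with 6 to 9 and 823.7 with 10 to 13. In H3R26C 5-Aza it was 21.0, 19.3, 57.7, 950.1 and 1806 CPM. At each step H3R26C was the higher library.

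**Figure D3:**
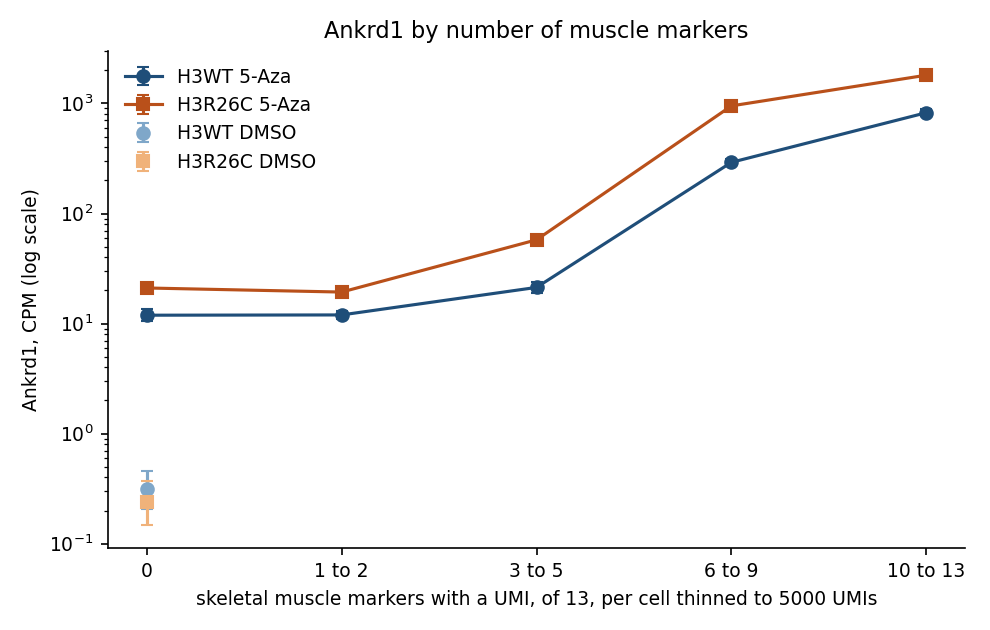
Ankrd1 in CPM (y axis, log scale) in cells grouped by how many of the 13 skeletal muscle markers had a UMI after thinning (x axis), with 95% Poisson intervals; the DMSO libraries are drawn at 0 markers only. Both 5-Aza libraries are flat up to 2 markers and higher at each later step, H3R26C stays above H3WT, and the cells with 0 markers lie at 11.9 and 21.0 CPM, above the 0.316 and 0.241 CPM of the DMSO cells.

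Outside the muscle-like cells Ankrd1 was lower but not at the DMSO level. The cells in neither the muscle-like nor the adipocyte-like class (at least 5 of 12 adipocyte markers) held 13.8 CPM in H3WT 5-Aza and 26.7 CPM in H3R26C 5-Aza, with a UMI in 4.84% and 8.75% of thinned cells. RNA free in the suspension reaches every droplet. In the adipocyte-like cells, 1 Ankrd1 UMI was counted over 35 cells of H3WT 5-Aza (1.66 CPM, 0.0421 to 9.27). Over 13 such cells of H3R26C 5-Aza, 2 were counted (8.20 CPM, 0.993 to 29.6). Median depths were 16833 and 20523 UMIs, against 13164 and 13062 for the other cells. Whether adipocyte-like cells express Ankrd1 of their own was not tested. The level of the other cells of H3R26C 5-Aza was within the interval of its adipocyte-like cells. In H3WT 5-Aza it was above that interval, which rests on 1 UMI. Acta1, the actin of skeletal muscle, stood at 48.2 and 36.9 CPM in the same adipocyte-like cells and at 98.3 and 106.3 CPM in the other cells. The part of free RNA in the Ankrd1 of the other cells was not tested.

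The ratio of Ankrd1 to Acta1 UMIs also differed between classes. There were 3.98 Ankrd1 UMIs for every 100 of Acta1 in the muscle-like cells and 14.02 in the other cells of H3WT 5-Aza, and 10.8 and 25.1 in H3R26C 5-Aza. Acta1 is itself one of the markers that set the class, so the ratio was taken by cluster too. There the muscle-like clusters did not go 1 way. The cluster led by Myog and Mylpf (G) had 3.17 and that led by Ttn and Neb (I) 29.8 in H3WT 5-Aza, and in H3R26C 5-Aza they had 10.6 and 29.9. The clusters not named for muscle lay between 6.28 and 65.4 in H3WT 5-Aza and between 14.5 and 29.6 in H3R26C 5-Aza. The upper ends of these ranges were in cluster E, where Hist1h1b, Tk1 and Top2a led. Within E the Ankrd1 level was lower in H3R26C 5-Aza than in H3WT 5-Aza (33.25 against 45.06 CPM, ratio 0.738, 0.607 to 0.903). Within A, B, C, F, G and I it was higher in H3R26C 5-Aza.

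Clusters of all kept cells were made with the 8 genes left out of the 3000 variable genes, which otherwise held 7 of them. The 10 clusters are named A to J from the largest down, and only G and I (skeletal muscle-like) and J (adipocyte-like) met the rule on markers. Cluster A was led by Colec10, Eln and Fos, B by Col8a1 and Ifi27l2a, C by Igfbp5, and D by Tmem176b, Bace2 and Cks2. Lxn, Stmn1, Hmgn2 and Ccn3 itself were also among the 10 leading genes of D. E was led by Hist1h1b, F by Gm26917 and Neat1, and H by Cilp, Wfdc13 and Enpp2. A had 3143, 3535, 2074 and 139 cells in the 4 libraries and B had 17, 1139, 48 and 4406, so that these clusters and the libraries overlap in large part. Levels are given for clusters with at least 50 cells of a library, and every contrast within a cluster again sets 1 library against 1.

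Ccn3 was highest in cluster D in H3WT 5-Aza, at 926.0 CPM, and in cluster F in H3R26C DMSO, at 1849 CPM. In H3WT DMSO clusters D (1237 CPM) and F (1235 CPM) overlapped, and in H3R26C 5-Aza cluster A (845.9 CPM) was the highest. Cluster D held 1451 cells and 55.3% of the Ccn3 UMIs of H3R26C DMSO and 43 cells and 1.64% of those of H3R26C 5-Aza. Within cluster A the level was higher with 5-Aza in both genotypes, 482.3 against 751.9 CPM in H3WT and 476.2 against 845.9 CPM in H3R26C, and within C it was 125.3 against 365.0 CPM and 380.1 against 430.1 CPM. Within D it was lower with 5-Aza in H3WT (1237 against 926.0 CPM), and within E in H3R26C (1022 against 101.6 CPM). Within F it was lower in both genotypes (1235 against 577.1 and 1849 against 205.8 CPM). The direction of the Ccn3 response thus differed by cluster in both genotypes. In H3R26C, A and C did not show the lower level of the whole library, but they held only 139 and 456 of its 7619 5-Aza cells. B, with 4406 of those cells, had 48 with DMSO and so no contrast. The part of the changed mix of clusters in the library's value was not tested.

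Cells were also taken by UMIs of Tmem176b and Lxn, leading genes of D. In H3R26C DMSO, Ccn3 stood at 1421 CPM in the 367 cells with a UMI of both Tmem176b and Lxn after thinning, 1007 CPM in cells with a UMI of 1 of them and 654.0 CPM in cells with neither, and in H3R26C 5-Aza the 291 cells with both were at 321.8 CPM and the cells with neither at 271.7 CPM. In the H3WT libraries the cells with a UMI of 1 of them were highest, at 657.5 CPM with DMSO and 636.5 CPM with 5-Aza. The cells with neither were at 495.0 and 583.9 CPM. The 22 and 49 cells with both were lowest, at 451.3 and 336.6 CPM. With DMSO the interval of the cells with both overlapped that of the cells with neither.

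Ccn2 and Ccn5 had their own pattern over the clusters. Ccn2 was lowest in D in both DMSO libraries (9.76 CPM in H3WT and 6.57 in H3R26C, where E overlapped it at 7.43), and Ccn3 was high there. In H3R26C DMSO, however, both genes were highest in F, at 106.7 CPM for Ccn2 and 1849 CPM for Ccn3. The per-cell r of Ccn2 with Ccn3 was -0.08 to 0.02 over the libraries. In cluster A Ccn2 was higher with 5-Aza in both genotypes, 72.6 against 126.2 CPM in H3WT and 65.8 against 129.3 CPM in H3R26C. The intervals of both genotypes overlapped there after 5-Aza. In B, which held most cells of H3R26C 5-Aza, it was at 192.1 CPM in H3WT 5-Aza and 42.9 CPM in H3R26C 5-Aza. Ccn5 was at 215.3 against 446.8 CPM in cluster A of H3WT and at 162.5 against 643.3 CPM in that of H3R26C. It was also higher with 5-Aza within C, D and F of H3WT and within C of H3R26C. Within E of H3R26C it was lower with 5-Aza (ratio 0.727, 0.614 to 0.865), and within F the interval included 1 (0.926, 0.800 to 1.07). In H3R26C 5-Aza it was low in muscle-like G and I (30.7 and 16.7 CPM) and also in E (25.8 CPM). In H3WT 5-Aza G, I and E were at 169, 70.0 and 183.6 CPM. Ccn1 was lower in D than in A in each of the 3 libraries with both values (335.4 against 748.4, 254.3 against 569.7 and 275.1 against 538.5 CPM). Within A, B, C, E, F, G and I it was lower in H3R26C 5-Aza than in H3WT 5-Aza. Cluster H, with 524 cells of H3R26C 5-Aza only, was at 591.2 CPM of Ccn1, above the 483.4 CPM of the whole H3WT 5-Aza library. H held 6.88% of the cells and 16.4% of the Ccn1 UMIs of H3R26C 5-Aza. Ccn4 was at 63.0 CPM in muscle-like I and 57.0 CPM in B in H3WT 5-Aza, with overlapping intervals, and in H3R26C 5-Aza it was highest in I, at 82.2 CPM (63.3 to 104.9). Its 5-Aza ratio in H3WT was 1.12 within A (1.02 to 1.22), 1.35 within C and 2.41 within F. Within D of H3WT the interval included 1 (0.824, 0.580 to 1.16). In H3R26C the ratio was 2.45 within A, 2.62 within E and 2.33 within F, and within C the interval included 1 (0.821, 0.634 to 1.055). Median depth was lowest in F (6756 to 12140 UMIs a cell) and its part in the values of F was not tested.

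**Figure D4:**
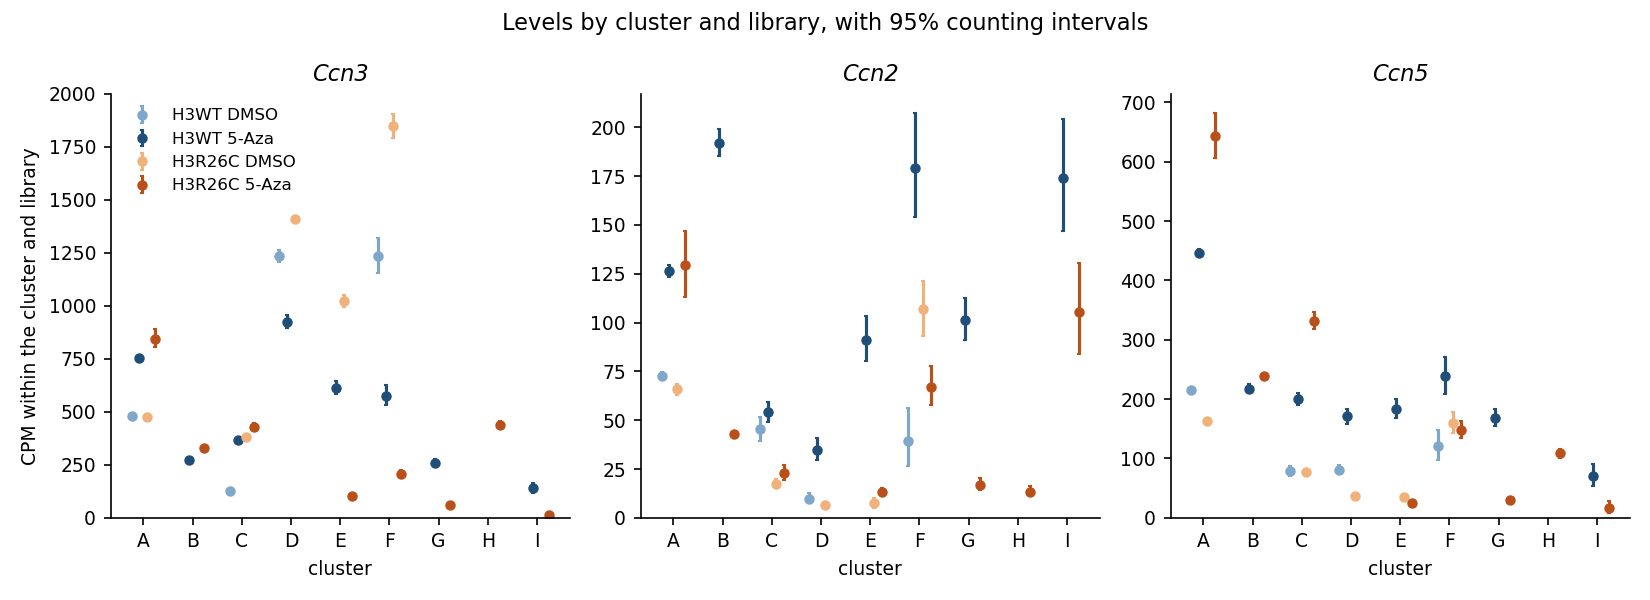
Levels of Ccn3, Ccn2 and Ccn5 in CPM (y axes, from 0) by cluster (x axes) and library (colours), for clusters with at least 50 cells of a library, with 95% Poisson intervals. Ccn3 peaks in D and F with DMSO, Ccn2 is below 10 CPM in D with DMSO, and for Ccn2 the H3R26C 5-Aza library is below H3WT 5-Aza in B, C, E, F, G and I while the intervals overlap in A.

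Levels also differed by cell cycle call. Ccn1 in cells called G2M was at 214.0 CPM against 720.1 CPM in G1 in H3WT DMSO, 299.6 against 508.8 in H3WT 5-Aza, 148.8 against 433.4 in H3R26C DMSO and 152.8 against 268.8 in H3R26C 5-Aza. Ccn2 and Ccn5 were likewise lower in G2M than in G1 in all 4 libraries, for example at 6.28 against 42.2 CPM for Ccn2 and 31.8 against 110.9 CPM for Ccn5 in H3R26C DMSO. Ccn3 was higher in G2M than in G1 in 3 libraries (985.0 against 488.6 CPM in H3WT DMSO, 617.7 against 575.7 in H3WT 5-Aza and 1063 against 786.4 in H3R26C DMSO) and lower in H3R26C 5-Aza (176.5 against 335.9 CPM). Cells called G1 made up 87.4%, 79.7%, 79.1% and 68.3% of the libraries. With only those cells, the log2 ratio of Ccn3 between the genotypes after 5-Aza fell inside the threshold, as stated above, and Ccn5 (1.07) was called higher with 5-Aza in H3R26C as well.

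Per-cell correlations among the 8 genes were weak. They were taken within each library as Pearson's r of log2(1 + UMI) over cells thinned to 5000 UMIs, where all points share a library and a depth, and are given as a description. The median r of the 28 pairs was 0.03 in H3WT DMSO, 0.04 in H3WT 5-Aza, 0.02 in H3R26C DMSO and 0.05 in H3R26C 5-Aza, and 6, 8, 4 and 8 pairs reached 0.1. Of all genes with a UMI in at least 5% of thinned cells, 0% to 4.43% reached 0.1 with a given member, by member and library. For Ccn1 that share was 0.758% to 1.47%, so a larger share of member pairs reached 0.1 than of genes at large. The genes at large were not matched to the members in level, and their share was not taken under the alternatives. Only 3 pairs did so in every library: Ccn1 with Ccn2 (0.22, 0.27, 0.23 and 0.16), Ccn1 with Ccn5 (0.17, 0.21, 0.15 and 0.15) and Ccn1 with Amotl2 (0.17, 0.20, 0.17 and 0.12). Ccn3 with Ccn5 ranged from -0.02 in H3R26C DMSO to 0.29 in H3R26C 5-Aza, the highest value of any pair. Ccn3 with Ccn1 was -0.08 and -0.05 with DMSO and 0.09 and 0.11 with 5-Aza. Ankrd1 reached 0.1 with none of the other 7 genes and was at -0.11 with both Ccn3 and Ccn5 in H3R26C 5-Aza. With DMSO it had a UMI in only 5 of 3710 and 6 of 4727 thinned cells, so its r in those libraries says little.

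**Figure D5:**
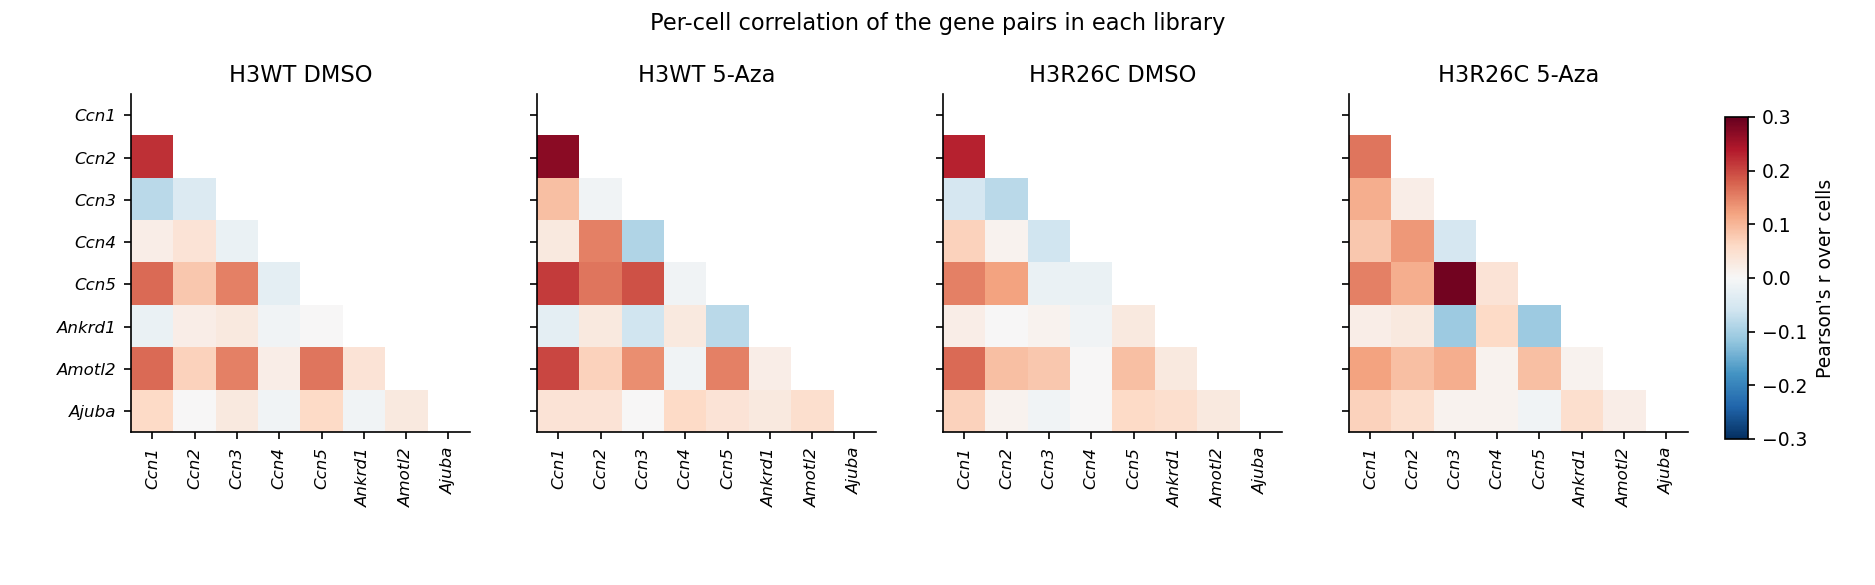
Pearson's r over thinned cells for each pair of the 8 genes (both axes) in each of the 4 libraries; red is positive, blue negative, on 1 colour scale. Ccn1 with Ccn2, Ccn5 and Amotl2 is positive in all 4 panels, and Ccn3 with Ccn5 runs from -0.02 to 0.29.

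The genes most like a member were those with the highest value of the lowest r over the 4 libraries, among 7680 genes compared. For Ccn1 they were Egr1 (lowest r 0.22), Col1a2 (0.21), Sparc (0.20), Junb (0.19) and Ier2 (0.19), so that 3 of the 5 were immediate early genes. With Ier2 its r was 0.46, 0.44 and 0.48 in the first 3 libraries and 0.19 in H3R26C 5-Aza, and with Egr1 0.39, 0.40, 0.44 and 0.22. The median r of Ccn1 with the immediate early genes was 0.29, 0.24, 0.26 and 0.10, over 15 to 19 genes, against -0.01 to 0.00 over all genes compared. For Ccn5 the nearest genes were those of matrix, Lox (0.27), Mfap5 (0.27), Fbln5 (0.26), Sparc (0.26) and Sfrp2 (0.24), where Lox crosslinks elastin and collagen and Mfap5 and Fbln5 are elastic fibre proteins. For Ccn3 they were Cd248 (0.22), Ifitm3 (0.21), Endod1 (0.20), Ly6a (0.19) and Fn1 (0.15), and for Amotl2 Ccn1 (0.12), Adamts5 (0.12), Vcl (0.11), Lox (0.11) and Ogn (0.10). Ccn2, Ccn4, Ajuba and Ankrd1 had too few positive cells in at least 1 library to be ranked. Ankrd1 had an r of 0.44 and 0.58 with Acta1 and of 0.43 and 0.58 with Myog in H3WT 5-Aza and H3R26C 5-Aza, and its median r with the muscle markers was 0.42 over 10 genes and 0.55 over 9.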

How the data were processed

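Counts of UMIs per gene and barcode were deposited for 4 libraries, and each was taken as 1 group from its genotype and treatment labels. The authors made these counts with Cell Ranger (6.1.0 in the file headers) on mm10 (GRCm38), and the deposited matrices hold whole numbers without normalization. How the counting treated strand is not stated in the sources used here. No column was left unmapped (0).

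The study's cell filter (5000 UMIs, 1500 genes, 20% mitochondrial UMIs) was applied, counts were summed per library and scaled to CPM, and log2 ratios used a pseudocount of 1 CPM and a call at 2-fold for genes whose mean was 1 CPM or more. No test was made between conditions, since each has 1 library. A share of 0 cells allows up to 3 cells of a library. No doublets were removed. Cells were clustered with SCTransform (sctransform 0.4.2, Seurat 5.3.0, R 4.3.3) with cell cycle scores regressed, 20 principal components and a resolution of 0.2. A cluster was named with at least 3 markers of a type detected and raised in it. Other steps used Python 3.11.15, numpy 2.4.6, scipy 1.17.1 and pandas 2.3.3, and were tested on simulated data. Promoters came from RefSeq (GRCm38.p6), gene positions from GENCODE M21, and promoters of Ccn2, Ccn3, Ccn4 and Ccn5 were not used here.

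The 8 genes and the gene lists were chosen with earlier results of these data known. Genes named from the lists are those called, at most 3 in each direction a list, and the genes most like a member are the 5 with the highest of the lowest r, among genes with a UMI in at least 5% of thinned cells of every library, for members at 10% or more. The levels of Yap1, Wwtr1 and Fos, the correlations with Acta1 and Myog, and the ratio to Acta1 were added after their values were seen, as were the cells taken by Tmem176b and Lxn. Some results are not reported here. Alternatives changed the pseudocount, cell filter, scaling, thinning, cells included, fold, minimum level, correlation and clustering.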

Additional observations from a re-analysis of the deposited data

Results flagged for a closer look

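The Ccn3 level moved in opposite directions with 5-Aza in the genotypes, at 1.12 times the DMSO level in H3WT and 0.347 times in H3R26C, with counting intervals that exclude 1 in both. The difference between the genotypes was not tested, since each condition is 1 library.

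Ankrd1 was also found, above its level in the kept cells, in barcodes that the cell filter left out of the 5-Aza libraries. It stood at 199.6 CPM (1825 UMIs) over the 9009 barcodes left out of H3WT 5-Aza and at 458.4 CPM (3221 UMIs) over the 4491 left out of H3R26C 5-Aza. The muscle-like kept cells of these libraries held 1477 and 6863 Ankrd1 UMIs. The 2529 barcodes left out of H3WT DMSO held 1.64 CPM (0.533 to 3.83, from 5 UMIs), also above the kept level of 0.311 CPM. The 1813 left out of H3R26C DMSO held 0 UMIs. The barcodes left out of the 5-Aza libraries had medians of 705 and 978 UMIs. They carried 4.32 and 10.0 Ankrd1 UMIs for every 100 of Acta1, beside 3.98 and 10.8 in the muscle-like cells of the same libraries. Of the other 7 genes, Ccn2 (42.4 against 34.8 CPM) and Amotl2 (51.4 against 45.3 CPM) stood above their kept level in the barcodes left out of H3R26C 5-Aza. Ajuba was also higher there (13.2 against 11.3 CPM), but its interval (10.68 to 16.22) included the kept level. No other of the 7 genes was higher in the barcodes left out of any library.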

How the results depend on the processing

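No paired analysis was possible because the labels give no replicate numbers and every condition has 1 library, and for the same reason no replicate could be left out. Over the 13 alternatives, no log2 ratio measured for the 8 genes changed sign, though that of Ccn2 with 5-Aza in H3R26C (-0.05) came to 0.00. The alternatives of fold and minimum level leave the ratios as they are. Ankrd1 had no ratio between the genotypes with DMSO. Of the 8 genes, those called higher with 5-Aza in H3R26C went from 2 to 1 with a pseudocount of 5 CPM. Those lower in H3R26C than in H3WT after 5-Aza went from 2 to 1 with the mean of per-cell CPM, with cells thinned to 5000 UMIs, in cells called G1, and without the 10% of cells with the most UMIs, where Ccn3 lay between -0.98 and -0.78. Those lower in H3R26C with DMSO went from 0 to 1 (Ccn5) with size factors, and the responses lower in H3R26C from 1 to 2 (Ccn2) with at least 10000 UMIs a cell. Those higher in H3R26C after 5-Aza, and the responses higher in H3R26C, went from 1 to 0 without the muscle-like and adipocyte-like cells and, in an alternative added after seeing the data, in cells with at most 2 muscle markers. Calls at 1.5-fold gave 4 higher with 5-Aza in H3WT (7.99% of all genes), 3 higher (13.4%) and 2 lower (10.3%) in H3R26C, 1 higher (5.57%) and 3 lower (2.18%) between the genotypes with DMSO, 5 lower after 5-Aza (8.67%) and 2 responses lower (6.59%). Pairs with r of at least 0.1 numbered 11 in both DMSO libraries and 12 in both 5-Aza libraries with all UMIs, 10, 10, 6 and 12 at 10000 UMIs (H3WT DMSO, H3WT 5-Aza, H3R26C DMSO and H3R26C 5-Aza), and 5 in H3R26C 5-Aza by rank. The cause of these changes was not tested, beyond the cells or the fold that each setting changes. Depth limits Ajuba, Ccn4 and Ankrd1 with DMSO most, at 0.0271 to 0.0357 CPM for 3 counts.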

Other observations

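The number of the 8 genes with a UMI in 1 cell after thinning to 5000 UMIs differed between the libraries. Cells with 0 of them made up 6.52% (DMSO) and 5.96% (5-Aza) of the H3WT libraries and 9.37% (DMSO) and 15.7% (5-Aza) of the H3R26C libraries. Cells with exactly 4 of them made up 13.1%, 16.97%, 6.94% and 7.61% in the same order, and 1 cell, of H3WT 5-Aza, had all 8. In the adipocyte-like cells Ccn1 was below the level of its library throughout. Ccn1 was at 46.4 CPM in the 12 cells of H3WT DMSO, 118.1 in the 35 of H3WT 5-Aza, 8.49 in the 16 of H3R26C DMSO and 41.0 in the 13 of H3R26C 5-Aza and Ccn2 had 0 UMIs in 3 of the 4 classes, while Amotl2 was at 65.8, 64.9, 90.6 and 28.7 CPM in the same cells. The interval of Amotl2 held the level of the whole library in all 4.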
